A study of Capra hircus with 3 samples.

Results

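The miR-30 family was followed through the skin of the Shanbei White cashmere goat in 3 small RNA libraries, which held 825 distinct family tags of 4043974 distinct clean tags in all. A tag is a distinct read sequence with its number of reads. The libraries came from anagen, catagen and telogen skin, the growth, regression and resting stages of the hair follicle. Each was made from RNA of the pooled skin of 10 adult goats of both sexes, so every stage had 1 library and no replicate. No treatment or genetic alteration was described for any animal. Family tags were those that share their first 18 nt with a tag annotated by the study to the precursors of miR-30a, miR-30b, miR-30c, miR-30d, miR-30e or miR-30f. The annotation used here named 46 such tags, every one of them on the 3′ arm (3p) of its precursor and with 15 distinct starts. The 6 arms on the 5′ side (5p) were identified among the deposited tags through the strand that pairs with miR-30e-3p and were counted by the same 18-nt rule.

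A miRNA precursor is a hairpin that is cut into a duplex of a 5p and a 3p strand, of which usually a single strand is kept by an Argonaute protein and guides it to complementary messenger RNAs. The seed, bases 2 to 8 from the 5′ end, does most of the pairing, so that members with the same seed can bind many of the same targets. The miR-30 family is expressed in many vertebrate tissues and is known for roles in differentiation and in the control of autophagy.

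The 5p strands are shown because all carried the same seed and were separated by a few bases further on. The sequence is the 5p tag matched to each member, as read in the deposited data, with the seed in capitals and T in place of U.
miR-30a-5p: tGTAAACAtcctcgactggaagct
miR-30d-5p: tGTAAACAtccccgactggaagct
miR-30e-5p: tGTAAACAtccttgactggaagct
miR-30b-5p: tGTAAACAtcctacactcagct
miR-30c-5p: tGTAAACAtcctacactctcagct
miR-30f-5p: tGTAAACAccctacactctcagct

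Counted from 1 at the 5′ end, miR-30d-5p differed from miR-30a-5p by T12C and miR-30e-5p from miR-30a-5p by C13T. Likewise miR-30f-5p differed from miR-30c-5p by T9C. miR-30b-5p and miR-30c-5p shared their first 18 nt and could be told apart only from base 19 on. Tags too short or too different to be split, with 6, 6 and 18 reads in anagen, catagen and telogen, were kept apart. By sequence the family therefore fell into the group of miR-30a, miR-30d and miR-30e and the group of miR-30b, miR-30c and miR-30f.

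The 3p strands are shown because their seeds differ between members. miR-30a-3p, miR-30d-3p and miR-30e-3p shared a seed, as did miR-30c-3p and miR-30f-3p, whereas that of miR-30b-3p departs from the latter at its last base. Here the most-read annotated tag of each arm is given.
miR-30a-3p: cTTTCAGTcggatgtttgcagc
miR-30d-3p: cTTTCAGTcagatgtttgct
miR-30e-3p: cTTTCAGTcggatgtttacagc
miR-30b-3p: cTGGGAGGtggatgtttactt
miR-30c-3p: cTGGGAGAgggttgtttact
miR-30f-3p: cTGGGAGAaggctgtttact

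miR-30e-3p differed from miR-30a-3p by G18A, and miR-30d-3p differed from it by G10A and A20T over the 20 nt compared. miR-30d-3p and miR-30f-3p rested on 1 annotated tag each, so reads with another start would have been missed.

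The anagen library held 15997828 clean reads, the catagen library 18111912 and the telogen library 27016012. Levels are given as TPM, the reads of an arm scaled to 1000000 clean reads, with exact Poisson 95% intervals. Intervals and floors cover counting error only, since the reads carry no molecular identifiers and each stage was sequenced a single time. A count of 0 allowed up to 3 reads, or 0.188, 0.166 and 0.111 TPM in the same order. In pooled tissue, fewer cells of a type and less RNA per cell cannot be told apart.

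Marker miRNAs were counted from the same annotation, which was shortened and lacked arms, so their levels and sums may be incomplete. A marker whose more abundant arm was missing, which may hold for miR-200c, would appear low. Of the epithelial markers miR-203, miR-205, miR-200b, miR-200c and miR-183, 4 had annotated tags and together reached 1197, 1944 and 2018 TPM in anagen, catagen and telogen, with miR-200c under 1 TPM. This sum was carried by miR-205, with 1005, 1794 and 1876 TPM, whereas miR-183 was highest in anagen, at 159, 109 and 102 TPM. The 5 muscle precursors found (those of miR-206, miR-133a and miR-133b and 2 copies of miR-1) summed to 4117, 78789 and 21405 TPM in the same order. The 3 red blood cell markers miR-451, miR-144 and miR-486 together had 1312, 2137 and 878 TPM. The liver marker miR-122 was not analysed here. The epithelial and the muscle sums were both lowest in anagen, as was the miR-30 5p level below, and their part in the miR-30 ratios was not tested.

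The family as a whole was represented mostly by its 5p strands. The anagen library held 13837 reads of the 5p arms together (865 TPM), the catagen library 21890 (1209 TPM) and the telogen library 33451 (1238 TPM). The level in anagen was the lowest of the 3, whereas catagen and telogen were close to each other. The log2 ratio of anagen to catagen was -0.48 (95% interval -0.51 to -0.45) and that of anagen to telogen -0.52 (-0.55 to -0.49). Catagen and telogen differed by -0.03 (-0.06 to -0.01). All 3 ratios stayed below 0 under each of the 3 other scalings tried, but with TMM factors, a trimmed mean of the ratios between libraries, the first fell to -0.05 and the second to -0.15. The other scalings moved every ratio of a pair by the same amount. Median-of-ratios factors moved the ratios of anagen to catagen, anagen to telogen and catagen to telogen by 0.40, 0.29 and -0.11, TMM factors by 0.43, 0.37 and -0.06, and scaling to the reads of annotated miRNAs by 0.00, -0.31 and -0.32. The shares and ratios between family members reported below do not depend on scaling.

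The seed GTAAACA was held by the 6 miR-30 5p arms and by no other annotated sequence. The annotation used here was shortened and lacked arms, so other sequences with this seed or a like profile may be missing from it. Of the annotated seeds with at least 10000 reads, the 3 whose centred log2 levels over the 3 libraries lay nearest to those of miR-30 5p were that of miR-532 (Euclidean distance 0.0654), that of miR-708 and miR-28 (0.114) and that of miR-185 (0.182). These distances compare 3 values per seed and are a description.

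miR-30d-5p was the most abundant arm in every library. It had 411 TPM (401 to 421) in anagen against 676 TPM (664 to 688) in catagen and 683 TPM (673 to 693) in telogen. The anagen level lay apart from the other two, which overlapped. miR-30a-5p followed with 289 TPM (280 to 297) in anagen against 355 TPM (347 to 364) in catagen and 299 TPM (292 to 306) in telogen. It was highest in catagen, and its anagen and telogen levels overlapped; scaled to the reads of annotated miRNAs, telogen was highest, and with the 2 other factors anagen was.

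The other 5p arms were less abundant. miR-30e-5p had 73.6 TPM (69.5 to 77.96) in anagen against 65.8 TPM (62.1 to 69.6) in catagen and 66.9 TPM (63.9 to 70.1) in telogen. All 3 of its intervals overlapped on this scale. miR-30c-5p had 54.0 TPM (50.5 to 57.7) in anagen against 57.5 TPM (54.0 to 61.1) in catagen and 112 TPM (108 to 116) in telogen. Its telogen level stood apart from 2 stages that overlapped. miR-30b-5p had 31.004 TPM (28.3 to 33.9) in anagen against 47.4 TPM (44.3 to 50.7) in catagen and 67.6 TPM (64.6 to 70.8) in telogen, and no 2 of the intervals overlapped. miR-30f-5p, the rarest, had 6.001 TPM (4.86 to 7.33), 6.13 TPM (5.04 to 7.38) and 9.33 TPM (8.21 to 10.6). The 3 arms of the miR-30b, miR-30c and miR-30f group were each highest in telogen, and this held under all 4 scalings. For miR-30f-5p with TMM factors, however, anagen and telogen were alike within counting error.

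On the 3p side, only miR-30a and miR-30e had more than a few TPM. miR-30e-3p had 50.7 TPM (47.3 to 54.3) in anagen against 50.0 TPM (46.8 to 53.3) in catagen and 67.7 TPM (64.7 to 70.9) in telogen. It was highest in telogen under all 4 scalings, but with TMM factors anagen and telogen were alike within counting error. The log2 ratio of anagen to telogen was then -0.05 (exact Audic-Claverie p = 0.44, not adjusted). miR-30a-3p had 41.6 TPM (38.5 to 44.9), 56.6 TPM (53.2 to 60.2) and 46.7 TPM (44.2 to 49.4), which on this scale is the order of its 5p partner. miR-30b-3p stayed between 2.59 and 2.88 TPM and miR-30c-3p between 1.67 and 2.69 TPM, with overlapping intervals for each arm. miR-30d-3p was read 2, 2 and 6 times. miR-30f-3p was read 6 times in anagen and 0 times in catagen and telogen, and its interval of 0.138 to 0.816 TPM in anagen reached below the floor of catagen but not that of telogen.

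**Figure D1:**
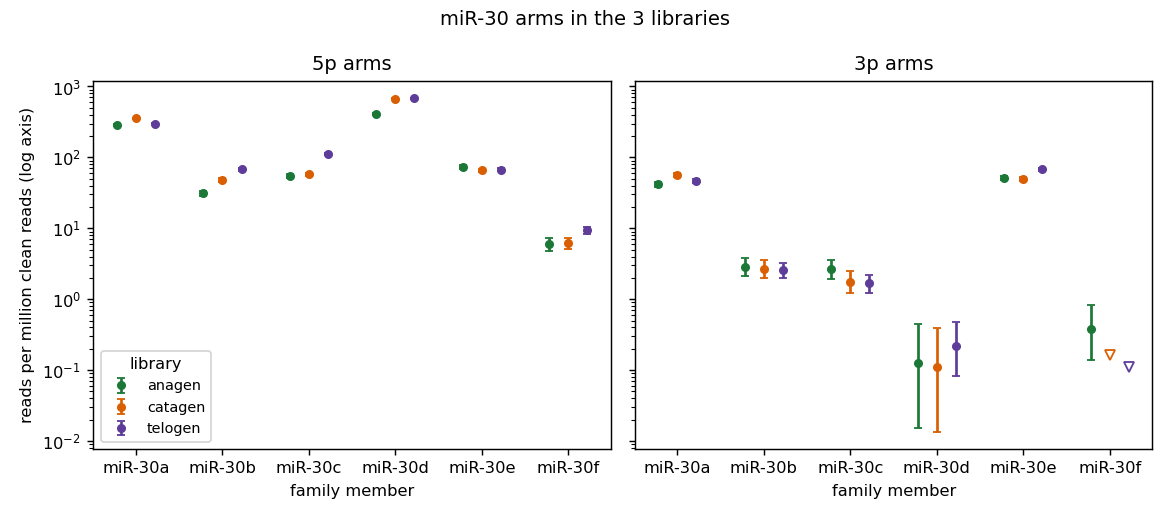
TPM (log axis) of the 5p and 3p arms of each miR-30 member in the anagen, catagen and telogen libraries, with exact Poisson 95% intervals; open triangles mark the floor of 3 reads for a count of 0. miR-30d-5p is the highest arm in each library, at 411, 676 and 683 TPM, and miR-30d-3p and miR-30f-3p lie under 1 TPM.

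The libraries were compared in pairs with the Audic-Claverie test, an exact and two-sided test that sets the reads of 2 libraries against each other and so compares libraries, not stages. An arm was called at an absolute log2 TPM ratio above 1 and p under 0.01, and arms that did not reach 1 TPM in either library were not tested. The same test was run on all annotated miRNA sequence groups, and p-values were adjusted over all of them by Benjamini-Hochberg. Of the 12 arms, 10 were tested in each pair, miR-30d-3p and miR-30f-3p being too low.

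Between anagen and telogen, 2 of the 10 arms were called, where the background over all 292 groups tested was 24.7%, or 19.9% for lower in anagen alone. Both were lower in anagen. Without the limit on the ratio, 5 arms had p under 0.01, beside a background of 63%. miR-30b-5p had a log2 ratio of -1.13 (-1.27 to -0.98, exact Audic-Claverie adjusted p = 6.24e-60). miR-30c-5p had a log2 ratio of -1.05 (-1.16 to -0.94, exact Audic-Claverie adjusted p = 1.08e-87). Both values lay near the limit of 1, and their intervals included it. With median-of-ratios factors they were -0.84 and -0.76 and with TMM factors -0.76 and -0.68, and neither was called. When edgeR's exact test was run with the biological coefficient of variation set to 0.4, no arm was called, beside 5.14% of the groups.

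The most-read arm, miR-30d-5p, stayed within the limit, with a log2 ratio of -0.73 (-0.77 to -0.69, exact adjusted p = 6.88e-293) between anagen and telogen. It passed the limit when reads were scaled to those of annotated miRNAs, at -1.05. miR-30f-5p had -0.64 (-0.99 to -0.29, exact adjusted p = 0.000384), so that all 3 arms of its sequence group were lower in anagen than in telogen under all 4 scalings. With TMM factors the ratio of miR-30f-5p was -0.27, within counting error (exact Audic-Claverie p = 0.135, not adjusted). miR-30e-3p had -0.42 (-0.54 to -0.30, exact adjusted p = 1.08e-11). miR-30e-5p had 0.14 (0.03 to 0.24), which turned to -0.18 with scaling to the reads of annotated miRNAs. miR-30a-5p had -0.05 (-0.10 to 0.00), an interval that includes 0. The median log2 ratio over the 10 arms was -0.29, beside -0.33 over all groups tested. Over the 7 arms with at least 100 reads in both libraries it was -0.42, beside -0.17 over the 154 groups with as many.

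Between anagen and catagen, none of the 10 arms was called, where the background over 294 groups was 27.2%. Without the limit on the ratio, 5 arms had p under 0.01, beside 61.2% of the groups. miR-30d-5p had the largest absolute ratio among the 10, at -0.72 (-0.76 to -0.67, exact adjusted p = 2.11e-240), and kept its sign under all 4 scalings. miR-30b-5p had -0.61 (-0.78 to -0.45, exact adjusted p = 8.54e-14) and also kept its sign. miR-30e-5p went the other way, at 0.16 (0.05 to 0.28), and was higher in anagen under every scaling. miR-30c-5p had -0.09 (-0.22 to 0.04), an interval that includes 0, but its ratio was 0.31 with median-of-ratios factors and 0.34 with TMM factors. miR-30c-3p, with 43 and 32 reads, had 0.61 (-0.09 to 1.31), and was called with median-of-ratios factors at 1.00 and with TMM factors at 1.03. The median over the 10 arms was -0.06, beside -0.43 over all groups tested. Over the 7 arms with at least 100 reads in both libraries it was -0.30, beside -0.35 over 153 such groups.

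Between catagen and telogen, none of the 10 arms was called, where the background over 293 groups was 12.6%. Without the limit, 6 arms had p under 0.01, beside 50.5% of the groups. miR-30c-5p lay just inside the limit at -0.96 (-1.06 to -0.86, exact adjusted p = 2.65e-82), and it was called under the 3 other scalings, at -1.27, -1.07 and -1.02. miR-30f-5p had -0.61 (-0.94 to -0.28, exact adjusted p = 0.000508) and miR-30b-5p had -0.51 (-0.63 to -0.39, exact adjusted p = 1.38e-17). miR-30d-5p had -0.01 (-0.05 to 0.02) and miR-30e-5p -0.03 (-0.13 to 0.08), both with intervals that include 0. miR-30a-5p had 0.25 (0.20 to 0.30, exact adjusted p = 3.16e-24), higher in catagen, which turned to -0.07 when scaled to the reads of annotated miRNAs. miR-30e-3p had -0.44 (-0.56 to -0.32, exact adjusted p = 1.48e-13). The median over the 10 arms was -0.02, beside 0.097 over all groups tested, and over the 8 arms with at least 100 reads in both libraries it was -0.23, beside 0.13 over 172 such groups. Any 2 of these comparisons share a library, so their values are not independent of each other.

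**Figure D2:**
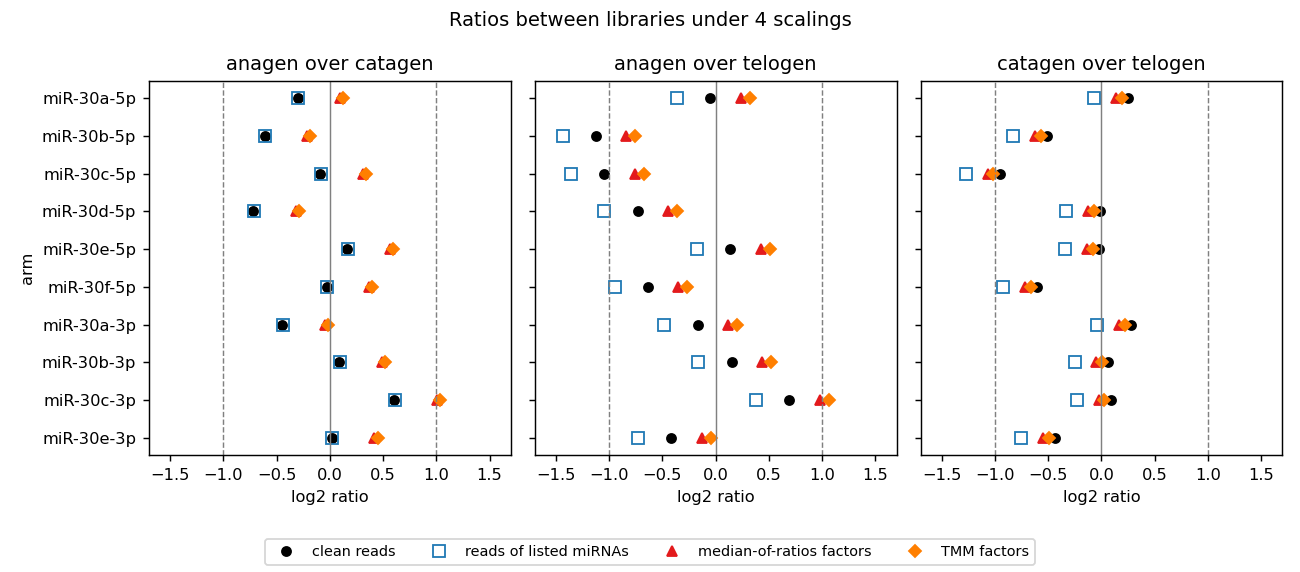
Log2 ratios of the 10 tested arms between each pair of libraries under 4 scalings, one marker per scaling; dashed lines mark the limit of 1. miR-30b-5p and miR-30c-5p lie left of 0 under all scalings between anagen and telogen, while miR-30a-5p changes side in each pair.

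The make-up of the 5p reads differed between the libraries. miR-30d-5p accounted for 47.5% (exact Clopper-Pearson interval 46.7 to 48.4) of the family 5p reads in anagen against 55.9% (55.3 to 56.6) in catagen and 55.2% (54.6 to 55.7) in telogen. Its share was lowest in anagen. miR-30a-5p accounted for 33.4% (32.6 to 34.2), 29.4% (28.8 to 30.02) and 24.1% (23.7 to 24.6), so its share was highest in anagen and lowest in telogen. miR-30e-5p accounted for 8.51% (8.05 to 8.99) in anagen but 5.44% (5.14 to 5.75) in catagen and 5.40% (5.17 to 5.65) in telogen.

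miR-30c-5p accounted for 6.24% (5.85 to 6.66) of the 5p reads in anagen against 4.76% (4.48 to 5.05) in catagen and 9.01% (8.71 to 9.33) in telogen. miR-30b-5p accounted for 3.58% (3.28 to 3.91), 3.92% (3.67 to 4.19) and 5.46% (5.22 to 5.71). miR-30f-5p accounted for 0.694% (0.562 to 0.847), 0.507% (0.417 to 0.610) and 0.753% (0.663 to 0.852), where the anagen interval overlapped with both others and those of catagen and telogen lay apart. Together the miR-30b, miR-30c and miR-30f group, with the few undivided reads, made up 10.6% (10.1 to 11.1) in anagen against 9.21% (8.83 to 9.61) in catagen and 15.3% (14.9 to 15.7) in telogen. The telogen share of this group was thus the highest, and the miR-30a, miR-30d and miR-30e group held the rest.

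**Figure D3:**
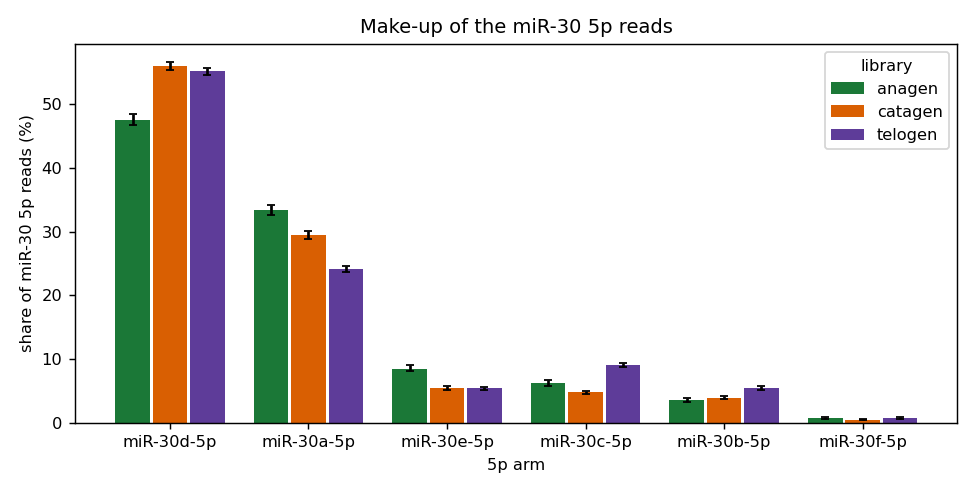
Share of the family 5p reads (%) held by each arm in the anagen, catagen and telogen libraries, with exact Clopper-Pearson 95% intervals. miR-30d-5p holds 47.5, 55.9 and 55.2% and miR-30a-5p 33.4, 29.4 and 24.1%, and miR-30c-5p reaches 9.01% in telogen.

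The 6 genes lie in 3 neighbouring pairs in the goat gene table of RefSeq (assembly ARS1.2), MIR30B with MIR30D, MIR30F with MIR30A, and MIR30C with MIR30E. Each pair holds 1 member of either sequence group. Neighbouring miRNA genes are often transcribed together, so the balance of the 5p strands within each pair was compared. miR-30c-5p had 0.733 reads per read of miR-30e-5p in anagen against 0.874 in catagen and 1.67 in telogen. The log2 change was -1.18 (exact conditional 95% interval -1.34 to -1.03) for anagen over telogen and -0.93 (-1.08 to -0.78) for catagen over telogen. For anagen over catagen it was -0.25 (-0.43 to -0.08). The more abundant strand of this pair was therefore miR-30e-5p in anagen and catagen and miR-30c-5p in telogen.

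miR-30b-5p had 0.0754, 0.0702 and 0.0990 reads per read of miR-30d-5p in anagen, catagen and telogen. Its log2 change was -0.39 (-0.54 to -0.24) for anagen over telogen, -0.50 (-0.62 to -0.37) for catagen over telogen and 0.10 (-0.06 to 0.27) for anagen over catagen. miR-30f-5p had 0.0208, 0.0172 and 0.0312 reads per read of miR-30a-5p, with log2 changes of -0.59 (-0.94 to -0.24), -0.86 (-1.19 to -0.52) and 0.27 (-0.14 to 0.68) in the same order. In all 3 gene pairs the member of the miR-30b, miR-30c and miR-30f group gained on its neighbour in telogen. The pairs share the same 3 libraries, so they are not independent observations of the stage.

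The share of 3p reads differed far more between members than between libraries. Over the family the 3p arms made up 10.2% (9.73 to 10.7) of the reads in anagen against 8.42% (8.07 to 8.78) in catagen and 8.76% (8.48 to 9.06) in telogen. miR-30e stood highest, with 40.8% (38.6 to 43.0) 3p reads in anagen against 43.2% (41.0 to 45.3) in catagen and 50.3% (48.7 to 51.9) in telogen, where the strands were equal within counting error. On the log2 scale its ratio of 3p to 5p reads changed by -0.56 (exact conditional interval -0.72 to -0.39) for anagen over telogen and by -0.41 (-0.57 to -0.26) for catagen over telogen. When only tags that are exact parts of an arm's sequence were counted, the shares were 22.1, 20.99 and 26.7%, since 263 of 811, 238 of 905 and 517 of 1830 miR-30e-3p reads were parts of an annotated tag.

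miR-30a kept an even balance, with 12.6% (11.7 to 13.5), 13.7% (12.96 to 14.5) and 13.5% (12.8 to 14.2) 3p reads and overlapping intervals. With exact parts alone these shares were 9.41, 8.73 and 9.66%. miR-30b had 8.49% (6.28 to 11.2) in anagen against 5.40% (4.02 to 7.07) in catagen and 3.69% (2.89 to 4.64) in telogen, or 7.83, 3.47 and 2.64% with exact parts alone. miR-30c had 4.74% (3.45 to 6.33), 2.98% (2.05 to 4.18) and 1.47% (1.07 to 1.96). For both, the 3p share was lowest in telogen, the stage in which the 5p strand was highest, and the 3p to 5p ratio of anagen over telogen changed by 1.27 (0.69 to 1.85) for miR-30b and 1.74 (1.09 to 2.38) for miR-30c on the log2 scale. With tags of 21 nt or longer alone, the shares of miR-30c were 2.28, 2.08 and 0.761%. miR-30d was almost wholly 5p, with 0.0304%, 0.0163% and 0.0325% 3p reads. miR-30f had 6 of 102 reads on the 3p arm in anagen and none in catagen and telogen, where a count of 0 allowed up to 2.70% and 1.19%.

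Other precursors with 2 separate annotated sequences and at least 1000 reads in each library gave a frame for these values. In 33 such precursors the median share of the rarer sequence was 0.476% in anagen against 0.606% in catagen and 0.540% in telogen, and the largest was 30.7, 34.2 and 40.3%. Counted by the same 18-nt rule, 4, 4 and 5 of the 33 reached the 3p share of miR-30a in the same library. The annotation did not hold every arm of every precursor, so this is a description of the sequences found. Between anagen and telogen, 15 of these precursors had at least 30 reads of the rarer sequence in both libraries. The change of miR-30c, 1.74 on the log2 scale, was matched or passed by 4 of the 15, as was that of miR-30b. The change of miR-30e, 0.56 in size, was matched or passed by 10 and lay below the median absolute change of the 15, which was 0.705. Between anagen and catagen the median over 15 precursors was 0.98, above the change of each of the 4 members with enough reads, the largest being 0.70 for miR-30b. Between catagen and telogen the median over 17 precursors was 0.37. The changes of miR-30c (1.04), miR-30b (0.57) and miR-30e (0.41) lay above it and were matched or passed by 2, 5 and 7 of the 17.

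**Figure D4:**
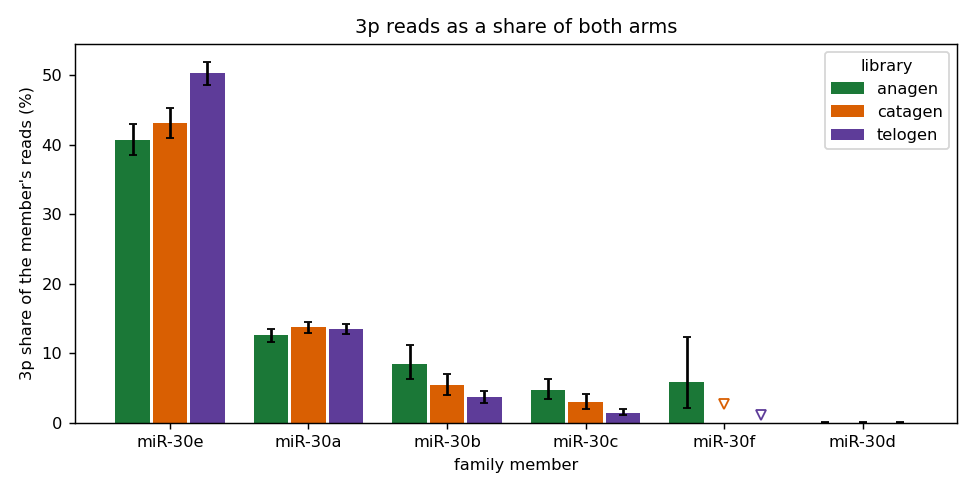
3p reads as a share of both arms (%) for each member in the anagen, catagen and telogen libraries, with exact Clopper-Pearson 95% intervals; open triangles mark the floor of 3 reads for a count of 0. miR-30e stands highest, at 40.8, 43.2 and 50.3%, and miR-30b and miR-30c are lowest in telogen, at 3.69 and 1.47%.

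Bases 12 and 13 tell miR-30a-5p, miR-30d-5p and miR-30e-5p apart, and a sequencing error there would move reads between members. Among tags with the rest of the first 18 nt intact, the 3 pairs of bases that belong to a member took nearly all reads. The 13 other pairs of bases together had 11 reads in anagen against 21 in catagen and 18 in telogen, or 0.0899, 0.106 and 0.0639% of the reads. The bases of miR-30e-5p, the rarest of the 3, had 1104, 1125 and 1694 reads. Whether errors moved reads between members was not tested.

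The 5p strands differed in where they ended. miR-30b-5p was mainly 22 nt long, with 74.8, 84.6 and 79.4% of its reads at that length in anagen, catagen and telogen. Tags of 24 nt, whatever their sequence, led for miR-30c-5p, with 57.8, 62.5 and 62.1%, and for miR-30d-5p, with 48.8% (47.5 to 50.0), 58.8% (58.0 to 59.7) and 55.0% (54.3 to 55.7). For miR-30e-5p the share of such tags was 43.0% (40.2 to 45.9), 57.9% (55.1 to 60.8) and 39.0% (36.8 to 41.3). For miR-30a-5p it was 33.3% (32.0 to 34.7), 39.9% (38.7 to 41.1) and 36.7% (35.7 to 37.8). Catagen had the highest share of 24-nt tags in these 4 arms and also in miR-30f-5p, with 59.4, 62.2 and 57.9%, though for miR-30c-5p and miR-30f-5p the 3 intervals overlapped.

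The forms of miR-30d-5p show the variation at the 3′ end. Capitals mark bases that depart from the sequence given above for the arm.
24-nt form: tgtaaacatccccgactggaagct
23-nt form: tgtaaacatccccgactggaagc
22-nt form: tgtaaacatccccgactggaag
23-nt form with another end: tgtaaacatccccgactggaagA

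The 24-nt form of exactly this sequence had 45.0, 55.9 and 52.0% of the miR-30d-5p reads in anagen, catagen and telogen, and the 23-nt form 26.3, 13.1 and 20.3%. The 23-nt form was thus most common in anagen and least common in catagen. The 22-nt form had 8.76, 7.22 and 8.40%, and the 23-nt form that ends in A had 6.02, 5.93 and 4.79%. Across the libraries, of 61 annotated groups with at least 1000 reads in each library, 50 had a shorter mean length in anagen than in catagen and 57 a shorter one than in telogen. The mean was also shortest in anagen in miR-30a-5p, at 23.04, 23.06 and 23.10 nt, and in miR-30d-5p, at 23.32, 23.46 and 23.40 nt. In miR-30e-5p the mean was 23.5, 23.6 and 23.4 nt, so anagen was not shorter than telogen there. In the 5p arms with fewer reads anagen was not shorter than either stage, with means of 22.16, 22.09 and 22.10 nt in miR-30b-5p, 23.58, 23.55 and 23.53 nt in miR-30c-5p and 23.48, 23.43 and 23.47 nt in miR-30f-5p.

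Tags that matched the arm's sequence up to a last base that was A instead were common in most 5p arms. Whether this A is in the goat gene or was added later was not tested. In miR-30a-5p, such tags made up 10.4% (9.57 to 11.4) of the reads in anagen against 15.0% (14.2 to 15.9) in catagen and 11.5% (10.8 to 12.2) in telogen. Catagen stood apart from the other stages there. In miR-30d-5p the share was 9.61, 9.92 and 8.27%, in miR-30e-5p 10.6, 11.1 and 11.2% and in miR-30c-5p 7.75, 6.34 and 5.07%. miR-30b-5p had 1.21, 1.05 and 1.48%, but its sequence shown is 22 nt long against 24 nt in the others. Tags that ran past the sequence shown were counted apart and made up 14.1, 10.7 and 13.1% of its reads. The A share of miR-30b-5p is therefore not directly comparable with the others. Tags with T in place of the last base stayed under 1% in these arms. In the rare miR-30f-5p the share with A was 8.33, 3.60 and 3.17%, and that with T reached 1.80% in catagen, from 2 reads.

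The most-read forms of miR-30e-3p are shown because the leading ones were not among the annotated tags, with bases that depart from or run past the annotated tag in capitals.
23-nt form: ctttcagtcggatgtttacagcA
22-nt form with another end: ctttcagtcggatgtttacagT
22-nt annotated form: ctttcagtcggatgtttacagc

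The 23-nt form had 24.5, 30.2 and 25.4% of the miR-30e-3p reads in anagen, catagen and telogen. The 22-nt form with T at its end had 19.9, 22.1 and 25.7%, and the annotated form had 10.2, 10.2 and 11.5%. Whether these last bases are in the goat gene or were added later was not tested, since no hairpin sequence was used. Tags of 18 to 20 nt made up 14.1% (11.7 to 16.6) of the miR-30e-3p reads in anagen against 5.41% (4.03 to 7.10) in catagen and 2.79% (2.08 to 3.65) in telogen. In miR-30a-3p they made up 12.9% (10.5 to 15.7), 5.37% (4.07 to 6.93) and 5.07% (3.93 to 6.43). Short tags were thus most common in anagen for miR-30e-3p and miR-30a-3p, beside the shorter mean length in anagen of most annotated groups given above. The part of that library-wide difference was not tested. In miR-30b-3p the share was 21.7, 12.2 and 25.7%, highest in telogen, and in miR-30c-3p 53.5, 31.25 and 48.9%. Within each of these rarer arms the intervals overlapped.

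**Figure D5:**
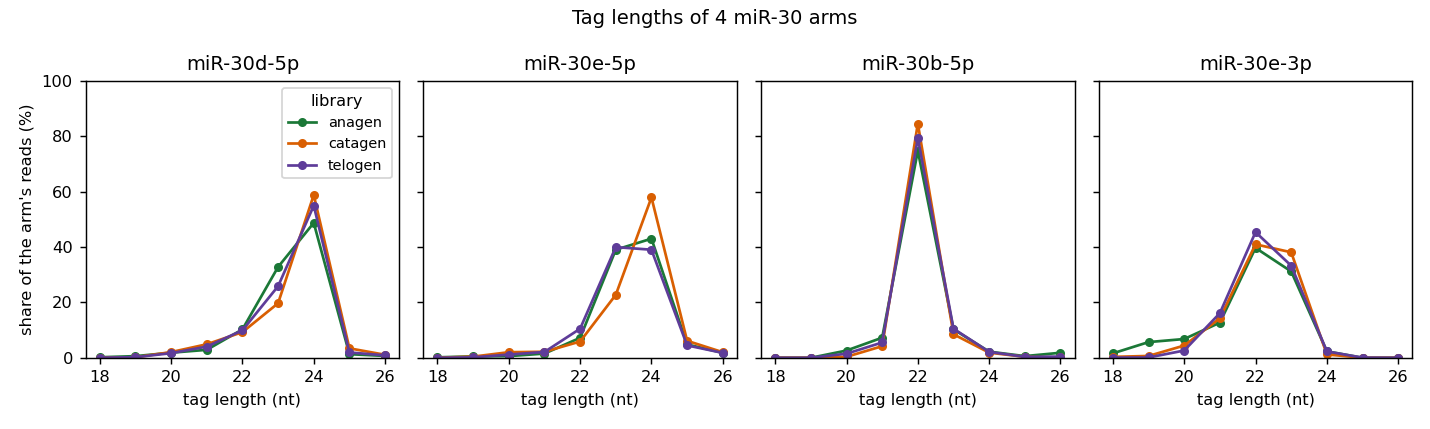
Share of the reads (%) of miR-30d-5p, miR-30e-5p, miR-30b-5p and miR-30e-3p at each tag length from 18 to 26 nt, a line for each library. The share of 24-nt tags of miR-30d-5p is highest in catagen at 58.8%, miR-30b-5p peaks at 22 nt, and anagen has the most 18 to 20-nt tags of miR-30e-3p at 14.1%.

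The 5′ ends, which set the seed, were steadier. Of the reads of miR-30a-5p, miR-30b-5p, miR-30c-5p, miR-30d-5p and miR-30f-5p, counted with starts up to 3 nt later, at least 98.8% in every library began at the start shown above. miR-30e-5p was looser, with 93.7, 94.5 and 93.7% in anagen, catagen and telogen. On the 3p side, a sizeable share of the reads of miR-30a-3p and miR-30e-3p began 1 nt later. It was 24.5% (21.3 to 28.0), 20.7% (18.2 to 23.3) and 26.4% (23.97 to 28.9) in miR-30a-3p. In miR-30e-3p it was 14.1% (11.7 to 16.6), 13.04% (10.9 to 15.4) and 13.2% (11.7 to 14.8). The later start shifts the seed, which is shown in capitals in the shortened strand.
miR-30a-3p, later start: tTTCAGTCggatgtttgcagc
miR-30e-3p, later start: tTTCAGTCggatgtttacagc

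For miR-30a-3p the share of the later start was lower in catagen than in telogen, with intervals that do not overlap. For miR-30e-3p the 3 intervals overlapped. Of the miR-30b-3p reads, 41 of 46, 44 of 49 and 65 of 70 began at the start shown above. For miR-30c-3p these were 39 of 43, 27 of 32 and 40 of 45. The few miR-30d-3p reads all began there, but its single annotated tag could show no other start.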

How the data were processed

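Skin small RNA of 3 goat pools was sequenced on an Illumina/Solexa Genome Analyzer. The authors filtered the reads by quality, adapter content and a length of at least 18 nt and deposited each distinct clean tag with its count, a number of reads without normalisation. No alignment enters these counts, and the aligner is not used here.

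Tags were assigned by their first 18 nt to the study's annotated tags, of which a shortened copy was used. Annotated tags of a precursor that shared 14 nt were joined, as were sequences of different precursors with the same 18-nt start, giving 464 sequence groups. No miR-30 5p tag was annotated in it. The reverse complement of the most-read annotated miR-30e-3p tag, less a 2-nt overhang, gave 8 nt that start the partner strand. Tags of at least 100 reads with this start were named by the miRNA whose reads in the study's expression table they matched, and that table served for nothing else. 5p tags may start up to 3 nt later but not earlier. This departs from the planned use of RefSeq hairpins, which were not used here. miR-30b-5p and miR-30c-5p were split by 2 bases in tags of 20 nt or longer.

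TPM are reads over clean reads of the library, scaled to 1000000, with 0 set to 0.01 TPM in ratios. The Audic-Claverie test (exact, two-sided), the method of the study, was used with a limit of 1 on the log2 ratio, p under 0.01 and a minimum of 1 TPM. Intervals are exact. Samples were grouped by the labelled stage, and the 3 pairs of libraries were compared. All 12 arms are named by rule, as are the 3 seed groups nearest in profile and the marker miRNAs. Members and lists were chosen with earlier results of these data known. Alternatives were other scalings, tag choices, minimums and tests. Python 3.11.15, scipy 1.17.1, R 4.3.3 and edgeR 4.0.16 were used, and the assignment and the test were tested on simulated data.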

Additional observations from a re-analysis of the deposited data

How the results depend on the processing

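Of 180 alternative values of the arms' log2 ratios, 169 kept their side of the call limits, 4 lost a call, 7 gained a call and 22 changed sign, none of them a called value. In parentheses is the share of all groups tested that the same setting called. The number of arms called between anagen and telogen went from 2 to 0 with median-of-ratios factors (22.3%) and with edgeR's assumed variation (5.14%), to 1 with TMM factors (22.1%), which was miR-30c-3p, higher in anagen, to 3 with scaling to annotated miRNAs (35.3%) or no minimum level (16.8%), and to 5 without the limit on the ratio (63%). Between anagen and catagen it went from 0 to 1 with median-of-ratios factors (18.1%), with TMM factors (18.4%) and with no minimum level (18.7%), and to 5 without the limit (61.2%). Between catagen and telogen it went from 0 to 1 with scaling to annotated miRNAs (15.8%), median-of-ratios factors (13.7%) and TMM factors (13.7%), and to 6 without the limit (50.5%). Without a minimum, miR-30f-3p was called from 6 reads. The log2 ratio of the 5p reads of the family of anagen to catagen was -0.085 with median-of-ratios factors, -0.055 with TMM factors and -0.44 with exact parts only. The ratio of anagen to telogen was -0.83 with scaling to annotated miRNAs, -0.23 and -0.15, and that of catagen to telogen -0.35, -0.15 and -0.093 in the same order and -0.093 with exact parts only. The 3p share of the family in anagen, catagen and telogen was 8.26, 7.03 and 7.25% with the canonical start only, 6.03, 4.20 and 4.44% with exact parts only, 35.1, 30.8 and 30.7% over distinct tags, and 9.01% in anagen with tags of 21 nt or longer.

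Further tag choices were added after seeing the data for the gene pairs and the 3p shares, namely tags of 21 nt or longer, the canonical start and exact parts. Under them the log2 change of each gene pair between anagen or catagen and telogen stayed within its interval. With tags of 21 nt or longer, the 3p share of miR-30c was 2.28% in anagen and 0.761% in telogen.

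The alternatives that read both arms from RefSeq hairpin windows were not run, since no hairpin sequence was used, and exact parts were taken against the strands shown. No paired analysis was possible because each stage had 1 library. Without replicates, the spread between goats at a stage was not measured, and depth limits miR-30d-3p and miR-30f-3p, each with 6 reads or fewer per library.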
